A study of Homo sapiens with 16 samples.

Results

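DND41 is an established human line of T-cell acute lymphoblastic leukaemia (T-ALL), and its resting expression was described here from the arrays of cells that received DMSO alone. Its members were the 2 DND41 DMSO arrays of 16 arrays in all, chosen by line and treatment from the labels. They were set against the DMSO arrays of CEM, CUTL1 and Jurkat, which are other T-ALL lines with 2 arrays each, and each line counted equally. The study also exposed all 4 lines to PD-0332991, an inhibitor of the cell cycle kinases CDK4 and CDK6, at 1 uM. Both treatments lasted 15 h, so the DMSO cells are vehicle controls. Each group is a single cell line, so a difference belongs to that line and carries no estimate of the spread between leukaemias. Nothing in the labels says that the 2 arrays of a group came from separate cultures. The p-values below thus cover the scatter of these arrays alone, which may be technical, and precision is limited by how few arrays there are.

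T-ALL arises from thymocytes arrested in development, and a leukaemia is usually classed by the transcription factor it switches on, such as TLX3, TLX1, TAL1, LMO1, LMO2 or LYL1. DND41 is known as a line with a rearranged TLX3 gene, a homeobox gene that normal thymocytes do not express. Around that factor, a thymocyte's stage can be read from its recombinase genes, its CD1 antigens, the parts of its T-cell receptor and the cytokine receptors it carries.

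Levels are log2 array intensities of 1 probe set per gene, and differences are the DND41 mean minus the mean of the 3 other line means. Levels were not compared between genes. A gene was said to be outside the range, and is called higher or lower below, when its limma adjusted p was under 0.05 and both DND41 arrays lay beyond all 6 arrays of the other lines. Of 13559 genes tested, 1737 (12.8%) were higher and 1639 (12.1%) were lower. The shares of gene lists given below are to be read against these. Another 2406 genes passed the adjusted p alone but overlapped the other lines. The distance to the nearest other line was usually small, with a median of 0.32 for the higher and -0.30 for the lower genes. It reached 1 in 226 higher and 160 lower genes, and 3, an 8-fold difference, in 45 higher and 24 lower genes. The same rule applied to each other line gave 1550 higher (11.4%) and 1693 lower (12.5%) genes for CEM, 1689 (12.5%) and 1845 (13.6%) for CUTL1, and 2368 (17.5%) and 1628 (12%) for Jurkat. The genes at least 3 beyond the nearest line numbered 18 higher and 29 lower for CEM, 23 and 31 for CUTL1, and 25 and 43 for Jurkat. Of the 4 lines DND41 had the most genes that far above the others and the fewest that far below, a difference between counts that was not tested.

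The 3 markers given for the line were higher in DND41 than in every other line. TLX3 stood at 6.66 and 7.06 in DND41, against 3.56 and 3.43 in CEM, 3.19 and 3.27 in CUTL1 and 3.62 and 3.08 in Jurkat. The other lines lay below the level of 4.88 at which a probe set was taken as dim, and DND41 lay above it in both arrays. The difference was 3.50 (SE 0.15, n = 2 and 6 arrays), with a limma adjusted p of 1.27e-06. LMO1, a LIM-only cofactor of T-ALL, stood at 9.11 and 9.26 in DND41, against 5.04 and 4.88 in CEM, 3.97 and 4.56 in CUTL1 and 5.78 and 5.41 in Jurkat. That was a difference of 4.24 (SE 0.16). DUSP6, a phosphatase that ERK signalling induces and that switches ERK off, stood at 13.07 and 12.94 in DND41, against 10.87 and 10.95 in CEM, 11.15 and 11.19 in CUTL1 and 6.31 and 6.66 in Jurkat. Jurkat alone was far below for this gene, and the distance from DND41 to the nearest line, CUTL1, was 1.84. All 12 T-lineage markers tested were above the dim level in DND41, from 6.87 to 13.90.

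The genes farthest outside the range were not T-ALL factors. ENPEP, a cell-surface aminopeptidase that cleaves angiotensin, stood at 10.97 and 11.01 in DND41, against 4.52 and 4.47 in CEM, 2.90 and 2.86 in CUTL1 and 3.24 and 3.74 in Jurkat. The other lines were dim and DND41 was bright, a difference of 7.37 (SE 0.12). LIMCH1, which activates non-muscle myosin, stood at 10.10 and 10.00 in DND41, against 3.79 and 3.82 in CEM, 3.65 and 3.63 in CUTL1 and 3.91 and 3.74 in Jurkat. The difference was 6.29 (SE 0.07). L1TD1, an RNA-binding protein known from pluripotent stem cells, differed by 5.99 and INPP4B, a lipid phosphatase of the PI3K pathway, by 5.63. The mast cell carboxypeptidase CPA3 differed by 5.40, the BMP receptor BMPR1B by 4.77, the immunoglobulin joining chain JCHAIN by 4.50 and OLFM4, a secreted glycoprotein of intestinal crypts and neutrophils, by 4.51. IFTAP (4.75), MLF1 (4.54), the pseudogene FMO9P (5.68) and SOCS2 (5.69) completed the 12 genes with the widest distance to the nearest line. FMO9P may share probes with its paralogs. In 11 of these 12 genes all 3 other lines were dim, so the size of the difference rests on the background level of the probe set.

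**Figure D1:**
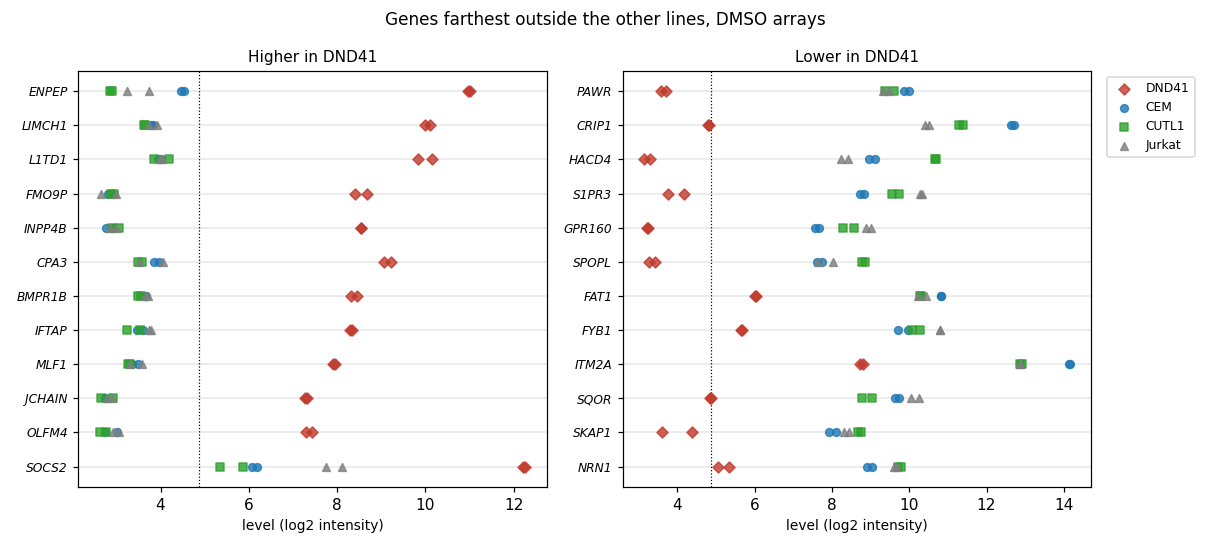
Level (log2 intensity) of the 12 higher and the 12 lower genes farthest from the nearest other line, with 1 point for each DMSO array and the dim level of 4.88 as a dotted line. In 11 of the 12 higher genes the CEM, CUTL1 and Jurkat arrays all sit left of the dotted line, and in 8 of the 12 lower genes the DND41 mean does.

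Outside this naming rule, which passed over receptor segments, TRDV3 was named after its values were seen. TRDV3, a variable segment of the T-cell receptor delta chain, stood at 11.30 and 11.37 in DND41, against 2.81 and 2.78 in CEM, 3.10 and 2.98 in CUTL1 and 3.32 and 3.06 in Jurkat. The 6 other arrays were dim, and the difference of 8.33 (SE 0.08) exceeded those of the 12 higher genes above.

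The lower genes included several that other T-ALL lines held at high levels. CRIP1, a small LIM-domain protein, stood at 4.80 and 4.82 in DND41, against 12.70 and 12.63 in CEM, 11.39 and 11.28 in CUTL1 and 10.52 and 10.42 in Jurkat. The difference was -6.68 (SE 0.07), and both DND41 arrays were dim. PAWR, a pro-apoptotic factor, differed by -5.96, the fatty acid elongation enzyme HACD4 by -6.13, and the sphingosine 1-phosphate receptor S1PR3 by -5.62. FAT1, an atypical cadherin often expressed in T-ALL, stood at 6.0 and 6.03 in DND41, against 10.81 and 10.82 in CEM, 10.32 and 10.27 in CUTL1 and 10.22 and 10.44 in Jurkat. FAT1 was thus lower but not dim, with a difference of -4.47 (SE 0.08). ITM2A, a membrane protein of developing T cells, differed by -4.54 from levels of 12.86 or more in the other lines. GPR160 (-5.11), SPOPL (-4.78), SQOR (-4.72), SKAP1 (-4.38), NRN1 (-4.25) and FYB1 (-4.60) were the rest of these 12. The limma adjusted p-values ran from 3.82e-09 to 9.41e-08 for the 12 higher genes and from 2.87e-09 to 7.60e-07 for the 12 lower ones.

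T-ALL transcription factors were next compared, since they class the disease. Of 18 listed factors tested, 6 (33.3%) were higher and 2 (11.1%) lower, against 12.8% and 12.1% of all genes, and the median difference was 0.17, against -0.02 over all genes tested. Beside TLX3 and LMO1, the higher ones were ERG (3.70), HHEX (3.84), LYL1 (2.16) and MEF2C (1.64), all of them regulators of early haematopoietic progenitors. HHEX stood at 9.85 and 9.79 in DND41, against 9.33 and 9.27 in CEM, 3.55 and 3.40 in CUTL1 and 5.30 and 5.01 in Jurkat. HHEX and ERG were shared with CEM, which lay only 0.52 and 0.82 below DND41. With PD-0332991 HHEX was not called, at 9.59 and 9.70 in DND41 and 9.83 and 9.85 in CEM. LYL1, a helix-loop-helix relative of TAL1, stood at 9.12 and 9.12 in DND41, against 8.02 and 8.03 in CEM, 6.21 and 6.28 in CUTL1 and 6.91 and 6.28 in Jurkat. LMO2, a partner of LYL1 and TAL1, was lower in DND41, at 5.09 and 4.49, against 7.87 and 8.16 in CEM, 5.78 and 5.71 in CUTL1 and 6.09 and 5.81 in Jurkat. The other lower factor was PBX3 (-0.34), whose call was lost without DND41 replicate 1 (-0.31). PBX3 was not called with PD-0332991 either (-0.37). TAL1 stood at 8.38 and 8.23 in DND41, within the other lines, which were at 8.85 and 8.93 in CEM, 4.17 and 4.42 in CUTL1 and 11.23 and 11.22 in Jurkat. Its difference of 0.17 (adjusted p 0.156) depended on the lines compared, at -1.75 without CUTL1 and 1.71 without Jurkat. TLX1 (-0.15) and MYC (0.17) did not pass the test, although without Jurkat the MYC difference was 0.44 and passed.

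Factors of T-lineage commitment leaned the other way. Of 45 tested, 14 (31.1%) were lower and 8 (17.8%) higher, with a median of -0.20. The repressor BACH2 stood at 5.37 and 5.54 in DND41, against 8.34 and 8.61 in CEM, 9.32 and 9.27 in CUTL1 and 8.21 and 8.23 in Jurkat, a difference of -3.21 (SE 0.09). ID1, an inhibitor of E proteins, differed by -3.36 and TOX2 by -3.28, although TOX2 in CEM was only 0.20 above DND41. SATB1, a chromatin organiser of thymocytes, differed by -1.89, the nuclear receptor RORA by -2.89, IKZF1 by -0.89, ETS1 by -0.86, TOX by -0.60, BCL11B, the partner of TLX3 in the known rearrangement, by -0.47 and GATA3 by -0.47. KLF2 (-2.77), NFATC1 (-1.45) and GATA3 were read from probe sets of the shared kinds (suffix _x_at or _s_at), and without such probe sets their differences were -0.10, -0.04 and -0.18 and were not called. IKZF3 (-0.78) was lower too, as was ZBTB7B (-0.41), whose call was lost without CEM replicate 1 (-0.41), CEM replicate 2 (-0.41), DND41 replicate 2 (-0.29) or Jurkat replicate 1 (-0.39). Among the higher factors, TCF4 stood at 10.81 and 10.70 in DND41, against 8.80 and 8.91 in CEM, 4.60 and 5.19 in CUTL1 and 7.91 and 7.94 in Jurkat. TCF4 encodes an E protein of dendritic and B-lineage progenitors. ID2, an E protein inhibitor of innate lymphocytes, was higher by 3.45 and EBF1, the founder factor of the B lineage, by 3.17. ETS2 (2.21), STAT4 (1.86), IKZF4 (1.78), FOXO1 (0.95) and ZEB1 (0.49) were also higher. STAT4 and FOXO1, and of the lower factors BCL11B and ZBTB7B, were not called with PD-0332991.

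The T-cell receptor relays antigen signals through the kinase LCK and the adaptor LAT, and this apparatus was lower in DND41 over most of its length. Of 43 genes of the receptor and its proximal signalling tested, 26 (60.5%) were lower and 1 (2.33%), CD7, was higher, with a median difference of -0.73. LAT stood at 7.87 and 7.87 in DND41, against 10.79 and 10.81 in CEM, 10.55 and 10.48 in CUTL1 and 11.05 and 10.99 in Jurkat. All 3 other lines were thus about 3 log2 units above DND41, and the difference was -2.91 (SE 0.06, adjusted p 3.64e-08). FYB1, an adaptor downstream of LAT, stood at 5.68 and 5.65 in DND41, against 9.97 and 9.72 in CEM, 10.28 and 10.07 in CUTL1 and 10.80 and 10.80 in Jurkat. SKAP1, which binds FYB1, stood at 4.37 and 3.61 in DND41, against 8.11 and 7.93 in CEM, 8.76 and 8.67 in CUTL1 and 8.44 and 8.30 in Jurkat. Both members of that adaptor pair were lower by more than 4 units. The costimulatory receptors CD27 and CD28 differed by -2.75 and -1.95. Genes of the list named after their values were seen give the spread within it, with THEMIS at -3.49, the phosphatases PTPN6 and PTPRC at -2.32 and -2.29, LCK at -1.15, CD3E at -0.63 and CD3D at -0.23. Of the CD3 and beta chains, CD3G (-0.10, adjusted p 0.509) and TRBC1 (0.16, adjusted p 0.0737) did not pass the test, and CD247 (-0.40) passed it but lay above CEM. CD7, an early T-lineage antigen, was higher by 1.47. In the PD-0332991 arrays 25 of the 26 lower genes were lower again, against 63% of all genes lower with DMSO.

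**Figure D2:**
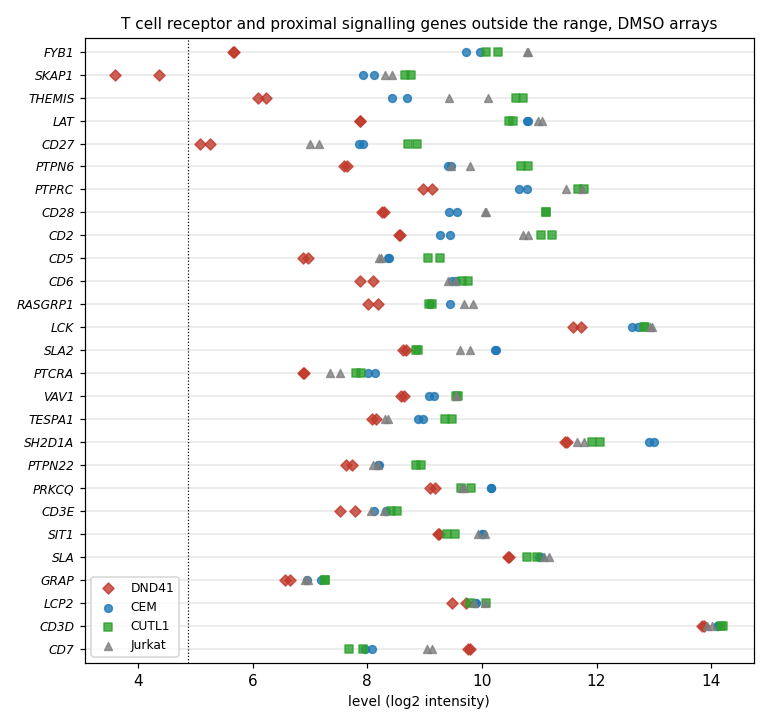
Level (log2 intensity) of the 27 T-cell receptor and proximal signalling genes outside the range, with 1 point for each DMSO array and the dim level as a dotted line. The DND41 points lie left of all others in 26 genes, widest in FYB1 and SKAP1, and right of them in CD7.

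Genes of thymocyte stage were outside the range in both directions, with 10 (25.6%) higher and 12 (30.8%) lower of 39 tested. The recombinase gene RAG1, active in immature thymocytes, stood at 11.16 and 11.10 in DND41, against 10.40 and 10.47 in CEM, 6.10 and 6.89 in CUTL1 and 4.80 and 4.86 in Jurkat. DND41 and CEM were close for this gene, and CUTL1 and Jurkat were far below. DNTT, the polymerase that adds bases at receptor joints, differed by 2.88 and was likewise nearest to CEM, 0.90 below DND41. CD34, a marker of progenitors, stood at 8.18 and 8.17 in DND41, against 6.08 and 6.17 in CEM, 5.71 and 5.53 in CUTL1 and 5.59 and 5.52 in Jurkat. CD1C, an antigen-presenting molecule of cortical thymocytes, went the other way, at 6.11 and 6.09 in DND41, against 11.35 and 11.30 in CEM, 10.57 and 10.57 in CUTL1 and 9.77 and 9.57 in Jurkat, a difference of -4.42 (SE 0.07). CD1A, its close relative, stood at 9.56 and 9.67 in DND41, against 9.69 and 9.55 in CEM, 8.58 and 8.61 in CUTL1 and 10.34 and 10.39 in Jurkat, and was not outside the range. CD4 (-0.95) and CD8A (-2.44) passed the adjusted p but overlapped Jurkat. CD44, a progenitor antigen, also passed at 2.16, but DND41 was below CEM and CUTL1, and without Jurkat the difference was -0.48.

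SOCS2, OSM, IL7R and CISH, all genes of cytokine signalling, were each higher in DND41 by more than 3 log2 units. Interleukin 7 sustains early T cells through its receptor, the kinases JAK1 and JAK3 and the factor STAT5, whose targets include the feedback inhibitors CISH and SOCS2. The promoter of CISH is shown because this STAT5 target was among the genes higher in DND41 by more than 3 log2 units. Whether STAT5 acts on CISH in DND41 was not tested. The 300 bases around the start of CISH (250 before, 50 after) hold 4 copies of the STAT5 motif TTCNNNGAA, in capitals. None of the copies overlap. The motif reads the same on both strands. The promoter lies at chr3:50611725-50612024 on the minus strand of GRCh38.p14 and its sequence is from RefSeq.
CISH: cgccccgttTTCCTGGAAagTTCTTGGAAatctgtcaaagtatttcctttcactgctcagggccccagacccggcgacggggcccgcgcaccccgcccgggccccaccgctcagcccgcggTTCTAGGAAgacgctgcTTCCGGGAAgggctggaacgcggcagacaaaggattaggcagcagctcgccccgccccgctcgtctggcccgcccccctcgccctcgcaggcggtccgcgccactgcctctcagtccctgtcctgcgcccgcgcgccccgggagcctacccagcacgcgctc
Of 35116 promoters of that length, 7.66% held the motif at least once and 7 (0.0199%) held 4 or more. The copies began 241, 230, 129 and 112 bases before the start. The promoters of SOCS1, PIM1 and IL7R had no match in this window, which says only that these letters are not in it. The promoters of SOCS2 and OSM were not analysed here.

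Of 41 cytokine receptor and JAK-STAT genes tested, 13 (31.7%) were higher and 5 (12.2%) lower in DND41, although the median difference was only 0.08. CISH stood at 10.72 and 10.88 in DND41, against 7.08 and 7.08 in CEM, 6.86 and 6.67 in CUTL1 and 7.13 and 7.53 in Jurkat, a difference of 3.74 (SE 0.11, adjusted p 1.86e-07). SOCS2 stood at 12.22 and 12.27 in DND41, against 6.18 and 6.08 in CEM, 5.35 and 5.86 in CUTL1 and 7.74 and 8.11 in Jurkat, a difference of 5.69 (SE 0.15). Both STAT5 feedback genes were far above every other line. OSM, a cytokine of the interleukin 6 family and another STAT5 target, stood at 9.54 and 9.48 in DND41, against 5.68 and 5.50 in CEM, 5.24 and 5.00 in CUTL1 and 5.94 and 5.78 in Jurkat. IL7R, the interleukin 7 receptor chain, stood at 11.64 and 11.75 in DND41, against 7.26 and 7.17 in CEM, 10.07 and 10.28 in CUTL1 and 5.61 and 5.95 in Jurkat. CUTL1 was nearest for this gene, 1.52 below DND41. Among genes named after their values were seen, the survival kinase gene PIM1 (2.55), the JAK inhibitor gene SOCS1 (2.47) and IL6R (2.17) were higher, while IL17RA (-2.29) and JAK3 (-1.07) were lower. The STAT5 genes, also named after their values were seen, were not outside the range, with STAT5A at 0.92, below CEM, and STAT5B at -0.25.

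Genes around ERK and RAS were mixed, with 5 (12.5%) higher and 10 (25%) lower of 40 tested, against 12.8% and 12.1% of all genes. The share of higher genes was thus near that over all genes. EGR1, whose transcription ERK signalling induces, stood at 9.89 and 9.87 in DND41, against 5.65 and 5.18 in CEM, 6.40 and 6.65 in CUTL1 and 5.76 and 5.90 in Jurkat, a difference of 3.96 (SE 0.13). IER5, another immediate early gene, was higher by 0.99. RASGRP1 (-1.28), an exchange factor that links the T-cell receptor to RAS, was lower. SPRED1 (-1.83), a RAS inhibitor named after its values were seen, was lower as well. DUSP4 (-1.16) and ETV5 (-0.32), ERK-induced genes likewise named after their values were seen, lay within the other lines.

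**Figure D3:**
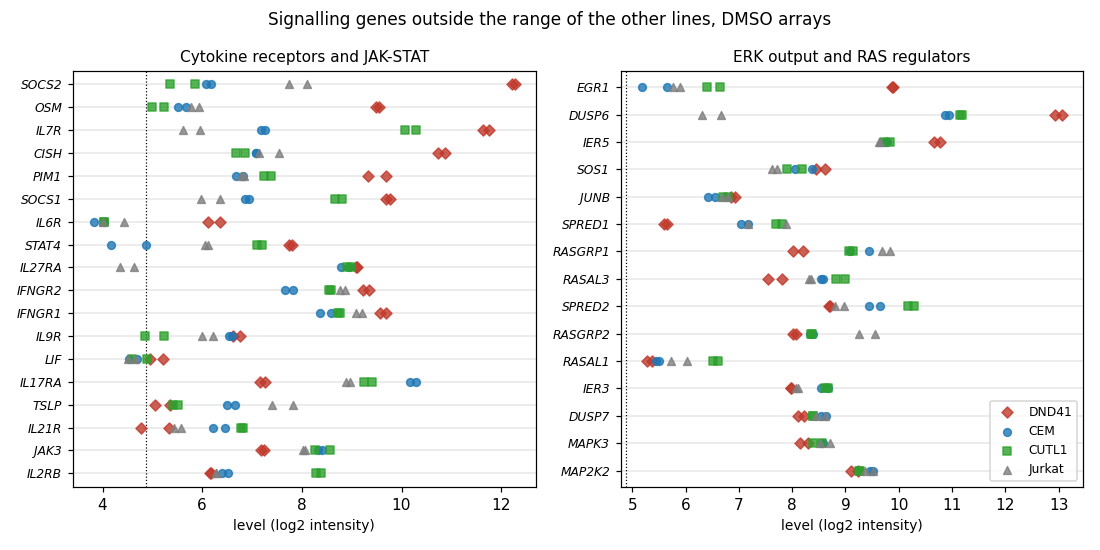
Level (log2 intensity) of the 18 cytokine and JAK-STAT genes and the 15 ERK and RAS genes outside the range, with 1 point for each DMSO array and the dim level as a dotted line. SOCS2, OSM and CISH on the left, and EGR1 on the right, show the widest gap between the DND41 points and every other line.

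In the NOTCH pathway, which drives most T-ALL, 7 (15.9%) genes were higher and 5 (11.4%) lower of 44 tested, near the shares over all genes. NRARP, a NOTCH feedback gene, stood at 6.06 and 5.88 in DND41, against 6.07 and 6.08 in CEM, 11.09 and 11.38 in CUTL1 and 6.35 and 6.40 in Jurkat. It was low in all lines but CUTL1. MAML2, a coactivator, was higher by 2.26. NOTCH1 differed by -0.50 and lay between Jurkat and CEM, and without CUTL1 its difference was -0.02. NOTCH3 (-0.23) did not pass the test, and did so without CUTL1 replicate 2 (-0.28). In the PI3K and mTORC1 pathway 6 (16.7%) were higher and 5 (13.9%) lower of 36 tested. PIK3CD, the leukocyte catalytic subunit, was higher by 1.07, and the regulatory subunit PIK3R3 (-1.21) and the phosphatase INPP4A (-0.86) were lower.

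CDK4 and CDK6 are the targets of PD-0332991, so the G1 genes set the starting point for the drug. Of 24 tested, 2 (8.33%) were higher and 3 (12.5%) lower. Over all genes the shares to set beside this list and those that follow were 12.8% and 12.1%. CDKN2A, which encodes an inhibitor of these kinases, stood at 10.73 and 10.73 in DND41, against 4.91 and 4.71 in CEM, 9.89 and 9.79 in CUTL1 and 5.42 and 4.91 in Jurkat. DND41 and CUTL1 were bright and CEM and Jurkat were near the dim level. The difference was 4.12 (SE 0.13). MTAP, a neighbour of CDKN2A in the genome, stood at 7.82 and 7.83 in DND41, against 3.95 and 4.44 in CEM, 7.71 and 8.02 in CUTL1 and 4.06 and 3.96 in Jurkat, so the same lines were high and low. The other higher gene was CDKN1A (0.74), another inhibitor, and the lower ones were CDKN2D (-1.37), CCNE1 (-0.70) and RB1. Of 19 BCL2 family genes 3 (15.8%) were higher and 3 (15.8%) lower. BCL2 was higher, at 9.36 and 9.32 in DND41, against 7.84 and 8.10 in CEM, 8.64 and 8.68 in CUTL1 and 8.15 and 8.39 in Jurkat. Of the 3 bright probe sets of BCL2, 2 differed in this direction and only 1 was outside the range. BCL2L1, another inhibitor of apoptosis, was higher by 0.73. BIK (-2.17), a killer protein of that family, and BCL2A1 (-2.21), a protective one, were lower. Of 23 listed p53 pathway genes, 6 (26.1%) were higher and 2 (8.70%) lower, led by GADD45A (1.70) and PLK2 (2.85).

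The sterol synthesis list had the largest share of higher genes, with 13 (54.2%) of 24 higher and 0 lower, and a median difference of 0.53. It was broader than its name. The 13 included the fatty acid genes ACACA, FASN and SCD and the regulators INSIG1 and SREBF2, all named after their values were seen. The enzyme genes HMGCS1 (0.98), SQLE (0.79) and SC5D (0.78) and the transporter ABCG1 (1.35) led it, all under 3-fold. In the PD-0332991 arrays 8 of the 13 were higher again, near the 54.5% of all genes higher with DMSO that were. ABCG1 and HMGCS1 were not called with the drug. Interferon-stimulated genes were higher in 14 (28.6%) and lower in 3 (6.12%) of 49 tested, with a median of 0.33. GBP5, an interferon-induced GTPase, stood at 8.91 and 9.12 in DND41, against 5.76 and 5.89 in CEM, 5.08 and 4.83 in CUTL1 and 5.55 and 5.12 in Jurkat. GBP4 (3.17), IFIT3 (2.24) and TRIM22 (2.79) were higher as well. IFIT3 in CUTL1 was only 0.92 below DND41. TRIM22 in CEM was only 0.66 below DND41, and TRIM22 was not called with PD-0332991. ISG15, named after its values were seen, was among the 3 lower ones, so the list did not move as 1 block.

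**Figure D4:**
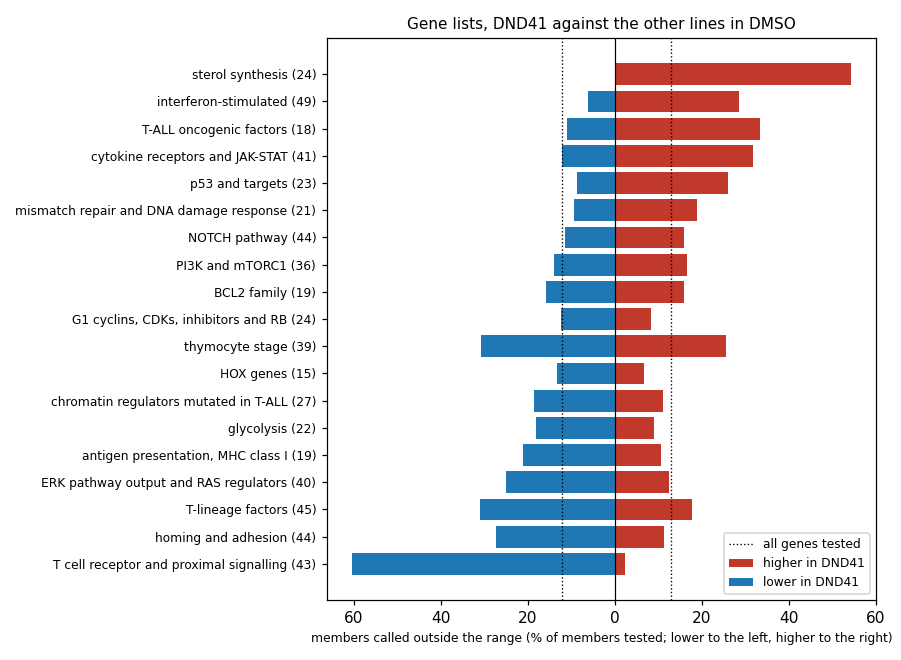
Share of tested members (in brackets, their number) that were higher (red, right) or lower (blue, left) in DND41, for the lists with at least 15 genes tested. The dotted lines mark 12.8% and 12.1%, the shares over all genes tested. The sterol synthesis list reaches 54.2% on the right and the T-cell receptor signalling list 60.5% on the left.

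Adhesion and homing genes were lower in 12 (27.3%) and higher in 5 (11.4%) of 44 tested. Over all genes 12.1% were lower and 12.8% higher, the shares to set beside this list and those that follow. ITGAL, an integrin alpha chain of lymphocytes, stood at 5.69 and 5.63 in DND41, against 7.53 and 7.32 in CEM, 8.35 and 8.60 in CUTL1 and 8.76 and 8.80 in Jurkat. ITGA4 (-1.37), an alpha chain of the integrins that bind VCAM1, was lower. In the class I antigen presentation list 4 (21.1%) were lower and 2 (10.5%) higher of 19. ERAP2, a peptide-trimming protease, stood at 6.15 and 6.35 in DND41, against 9.61 and 9.56 in CEM, 10.92 and 10.84 in CUTL1 and 9.26 and 9.94 in Jurkat. NLRC5 (-1.33), an activator of class I genes, was lower, although NLRC5 in CUTL1 was only 0.20 above DND41 (adjusted p 0.236) and the gene was not called with PD-0332991. Another lower gene was ERAP1 (-0.65), whose call was lost without the shared kinds of probe set (-0.17). Of 27 chromatin regulators mutated in T-ALL, 3 (11.1%) were higher and 5 (18.5%) lower. TET2 (-1.77), which oxidises methylated cytosine, was lower and DNMT3B (1.67), which methylates cytosine, was higher. IDH2 (-0.96) was lower, and so was HDAC9 (-2.22), although HDAC9 in CEM was only 0.30 above DND41 and that single-line difference did not pass (adjusted p 0.228). Of 15 HOX genes tested 1 was higher, HOXD13, at 7.47 and 7.62 in DND41, against 4.67 and 4.68 in CEM, 4.56 and 4.50 in CUTL1 and 6.17 and 6.33 in Jurkat. HOXB4 (-0.62) and HOXB13 were lower. Of 22 glycolysis genes 2 (9.09%) were higher and 4 (18.2%) lower, among them PKM (-0.82) and GPI (-0.80). Only 1 of the 2 bright probe sets of PKM differed in this direction. Of 21 repair genes 4 (19.0%), PARP1 (0.75) and CHEK2 (0.59) among them, were higher and 2 (9.52%) lower.

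Markers of other cell types were read in the same arrays. Of 8 B-cell markers tested, CD79A (2.55), BLK (2.44) and EBF1 were higher and POU2AF1 (-0.78) was lower. CD79A, the signalling chain of the B-cell receptor, stood at 10.45 and 10.35 in DND41, against 8.39 and 8.31 in CEM, 7.43 and 7.53 in CUTL1 and 7.83 and 7.60 in Jurkat, so it was bright in every line. The summed intensity of the B-cell list was 2526 to 2614 in DND41 and 876 to 2759 in the other lines. For the myeloid list it was 3051 to 3074 in DND41 and 5233 to 8484 in the others, with 8 members dim. AIF1 (-1.27), the 1 member lower of 3 tested, made up most of that sum in each array, so it reflects 1 gene. For the NK and cytotoxic list it was 647 to 691 in DND41 and 879 to 2213 in the others, with CTSW (-1.21) the 1 lower of 8 tested. For the epithelial list it was 236 to 246 in DND41 and 264 to 347 in the others, with 0 of 5 tested outside the range. The erythroid and megakaryocyte list had TFRC (0.30) higher of 7 tested, the fibroblast and endothelial list CLDN5 (1.95) higher and FBN1 (-1.09) lower of 8, and the neural list UCHL1 (-0.35) and SOX10 (-0.55) lower of 9. The TFRC call was lost without DND41 replicate 1 (0.29) or 2 (0.30). The UCHL1 call was lost without CEM replicate 2 (-0.34), DND41 replicate 2 (-0.20) or Jurkat replicate 1 (-0.33), and the SOX10 call without either CEM (-0.55 and -0.56), either DND41 (-0.54 and -0.57), CUTL1 replicate 1 (-0.45) or Jurkat replicate 1 (-0.46). The part of these markers in the results was not tested.

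DND41 was about equally far from each other line. Against CEM alone 2984 genes (22%) were higher and 2654 (19.6%) lower at an adjusted p under 0.05, together 41.6% of genes tested. Against CUTL1 2914 (21.5%) were higher and 2554 (18.8%) lower, together 40.3%, and against Jurkat 2670 (19.7%) were higher and 3115 (23%) lower, together 42.7%. These 3 comparisons share the DND41 arrays. Among the genes named as outside the range, at least 1 of these single-line differences did not pass for ABCG1, BCL11B, CTSW, HDAC9 and HLA-DQB1. The same held for IKZF3, NLRC5, NRARP, PBX3, POU2AF1, SOX10, TFRC, TOX2, UCHL1 and ZBTB7B. Across genes, which are not independent replicates, the line means correlated at 0.932 with CEM, 0.926 with CUTL1 and 0.923 with Jurkat. The nearest line of a higher gene was CEM in 558, CUTL1 in 525 and Jurkat in 654 genes. For the lower genes these numbers were 566, 608 and 465. The 2 DND41 arrays correlated at 0.998.

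The PD-0332991 arrays hold other samples of the same lines and were used as a check of the same differences under the drug. In them 1597 (11.8%) genes were higher and 2081 (15.3%) lower in DND41. The 947 genes higher under both treatments were 54.5% of the DMSO list and 59.3% of the drug list, and the 1033 lower under both were 63% and 49.6%. All 45 higher and 24 lower genes at least 3 beyond the nearest line in DMSO were called again. At least 1 beyond it, 217 of 226 and 156 of 160 were called again. Among the 3376 genes outside the range in DMSO, 16 higher ones were lower and 12 lower ones higher under the drug. TLX3 stood at 6.45 and 6.93 in DND41 with the drug, against 3.14 and 3.25 in CEM, 3.50 and 3.43 in CUTL1 and 3.08 and 3.34 in Jurkat. The TLX3 difference was 3.40 with the drug, against 3.50 with DMSO, and its change did not pass the test (adjusted p 0.791).

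The change of the DND41 difference with the drug was itself tested. It passed in 2010 (14.8%) of all genes and in 752 of those outside the range in DMSO, where the difference became smaller in 491 and larger in 261. These genes had been selected on their difference with DMSO. The largest change among the genes named was that of EGR1, an immediate early gene. With the drug EGR1 stood at 8.93 and 8.82 in DND41, against 5.23 and 5.72 in CEM, 7.13 and 7.20 in CUTL1 and 7.22 and 7.38 in Jurkat. DND41 was lower than with DMSO and CUTL1 and Jurkat were higher, so the difference was 2.23 with the drug, against 3.96 with DMSO (change -1.73, SE 0.20, limma adjusted p 0.00126). DUSP6 stood at 12.48 and 12.98 in DND41 with the drug, against 12.03 and 11.65 in CEM, 11.49 and 11.52 in CUTL1 and 8.26 and 8.27 in Jurkat, a change of -1.29 (SE 0.19). BCL2 went the other way. It stood at 9.89 and 9.88 in DND41 with the drug, against 7.50 and 7.36 in CEM, 7.68 and 7.70 in CUTL1 and 8.19 and 8.18 in Jurkat, a difference of 2.12 with the drug, against 1.04 with DMSO.

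**Figure D5:**
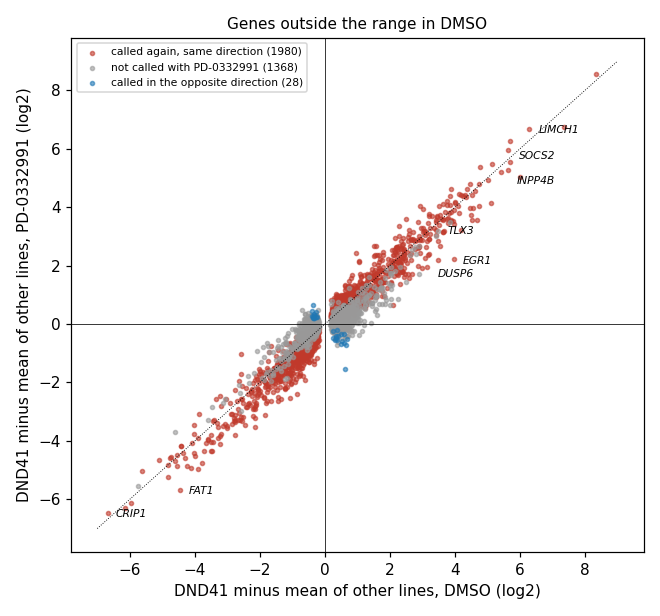
DND41 minus the mean of the other lines with DMSO (x axis, log2) and with PD-0332991 (y axis, log2) for the 3376 genes outside the range in DMSO, with equality as a dotted line. Red points (1980) were called again in the same direction, and EGR1 and DUSP6 lie below the line and FAT1 farther from 0 than it.

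In 3 quality measures the DND41 arrays lay within the range of the other lines' DMSO arrays, and in 2, GAPDH and the spikes, 1 DND41 array lay just below it. The median intensities of DND41 were 29.01 to 29.05, against 28.52 to 29.89 in the other lines' DMSO arrays. The 18S ribosomal RNA probe sets stood at 13.21 to 13.26 in DND41 and 12.56 to 13.48 in the others, and the actin probe sets differed between the 3′ and 5′ ends by 1.00 to 1.01 in DND41 and 0.51 to 1.38 in the others. The GAPDH probe sets differed between these ends by 0.0925 to 0.116 in DND41 and 0.101 to 0.195 in the others. The hybridisation spikes were at 9.60 to 9.74 in DND41 and 9.62 to 10.04 in the others. Genes with several bright probe sets gave the same sign in all of them in 761 of 931 higher and 675 of 817 lower genes, and 20 and 15 had a probe set outside the range in the opposite direction. Fewer cells of a kind and less RNA per cell cannot be told apart in these bulk samples.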

How the data were processed

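Expression was measured on Affymetrix Human Genome U133 Plus 2.0 arrays. What the authors deposited is an intensity for each probe set, made with RMA per the submitters' processing notes. The RMA version is not given in the sources used here. Values were on a linear scale, although log2 values had been assumed, so log2 was taken first with no pseudocount. Per the labels' protocols, RNA was amplified with the Ovation system, which can alter relative levels.

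Platform annotation named the genes. Of 54675 probe sets 41097 had 1 symbol, 1801 several and 11777 none, and the IDs of 41043 were found in RefSeq, where 0 symbols changed. Each of 19775 genes was read from whichever of its probe sets was brightest on average over the 16 arrays, and 6216 were set aside as dim because no line's DMSO mean reached the median of all values (29.5, or 4.88 in log2). Linear models with group means were fitted to the 8 DMSO arrays with limma 3.58.1 in R 4.3.3 (lmFit, then eBayes, with 3.64 prior beside 4 residual degrees of freedom), two-sided, with Benjamini-Hochberg adjustment over 13559 genes. The PD-0332991 arrays had their own fit, and the change with the drug was fitted on all 16 arrays. The replicate numbers were not used in the main fit. The deviations of same-numbered arrays correlated at -0.06 to 0.21 between lines. The labels do not say whether such arrays were handled together. On simulated data for 13559 genes, 11% of genes changed by 0.25 in log2 were called outside the range, 81% at 0.5 and 99% at 1, with 0.0912% of unchanged genes. For these shares the simulated lines shared 1 mean per gene and differed only by array noise. The real lines differ from each other, so the shares do not carry over to them.

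Named genes were the 12 higher and 12 lower genes farthest from the nearest line, fixed T-ALL genes, the 4 members of each of 28 lists with the smallest p, called members of both factor lists, and all members where 5 or fewer were called. Uncharacterised loci and receptor segments were passed over. The genes, lists and rule were chosen with earlier results of these data known. Alternatives covered scaling, probe sets, filters, the log scale, the spread model, replication, and arrays or lines left out. Figures used Python 3.11.15 and matplotlib 3.10.9. Some genes are not reported here.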

Additional observations from a re-analysis of the deposited data

Results flagged for a closer look

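The results below are named genes whose DND41 difference changed with PD-0332991 in a test of the change itself (limma on all 16 arrays, adjusted p under 0.05). Each value is the difference with the drug minus the difference with DMSO, in log2 units. A negative value thus brings a higher gene nearer to the other lines and takes a lower gene farther from them. It can come from DND41, from the other lines or from both, so it is not a response of DND41 alone. Between DMSO and the drug, DND41 itself moved by -0.89 for FAT1 (limma adjusted p 1.68e-05). For ITGAL it moved by -0.0012 (limma adjusted p 0.995). Of 159 named genes 41 passed, and 14.8% of all genes tested did. Many named genes had been chosen by their results in the same DMSO arrays that enter this test. That choice can itself raise their share, so the comparison cannot show whether named genes changed more often than others.

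Among genes higher in DND41 with DMSO, the change was negative for EGR1 (-1.73), DUSP6 (-1.29), MLF1 (-0.99), L1TD1 (-0.94), GBP4 (-0.80), JCHAIN (-0.77), IFTAP (-0.71), ENPEP (-0.62), IFIT3 (-0.55), the sterol enzyme gene HMGCS1 (-0.50) and GADD45A (-0.45). It was positive for BCL2 (1.08), PIK3CD (0.66), BMPR1B (0.62) and FMO9P (0.58).

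Among genes lower in DND41 with DMSO, the change was negative for FAT1 (-1.20), KLF2 (-1.03), ERAP2 (-0.98), BCL2A1 (-0.93), POU2AF1 (-0.75), BIK (-0.71), HLA-DMA (-0.66), ITGAL (-0.61), NRN1 (-0.61), CDKN2D (-0.57), TET2 (-0.56), BACH2 (-0.55), CD28 (-0.48), RASGRP1 (-0.47), INPP4A (-0.34) and ITM2A (-0.34). It was positive for ID1 (0.81), PIK3R3 (0.55), ZBTB7B (0.54), GPR160 (0.45) and AIF1 (0.36).

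Genes within the range of the other lines with DMSO also changed. The difference of MSH6, a mismatch repair gene, moved by 0.77, and MSH6 was outside the range with the drug. TAL1 (-0.67), RUNX2 (-0.59), NOTCH3 (0.45) and HLA-B (0.39) moved as well. Probe sets of HLA genes can be shared between genes and alleles, so those values are uncertain.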

How the results depend on the processing

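The counts of 1737 higher and 1639 lower genes stayed within 1.5 times of themselves under every alternative run but 2. With each line's mean as 1 replicate, the spread is that between the 3 other lines. In that fit 5 genes were higher (FMO9P, INPP4B, L1TD1, LIMCH1 and TRDV3, lowest limma adjusted p 0.0429) and 0 lower. An unadjusted limma p under 0.05 was seen in 635 of 13559 genes, fewer than that threshold gives with no true differences. On simulated data that fit called 0% at sizes of 0.25 to 2 in log2. The 5 genes called differed by 5.63 (INPP4B) to 8.33 (TRDV3), sizes that were not simulated. With all 3 single-line differences required to pass, 880 were higher and 778 lower. Leaving out 1 DMSO array at a time, which leaves 1 array in a group, kept the higher and lower counts within 1.5 times of themselves. For the 1980 genes called again with PD-0332991, only the DND41 drug arrays were left out in turn. That count stayed within the same limit. Quantile scaling gave 1573 and 1809, centring 1792 and 1530, and leaving out Jurkat 2594 and 2132. With the replicate number as a block 1718 were higher and 1644 lower. Without 1 line, 4 named differences that had passed the test turned, to -0.0268 for PECAM1 without CUTL1 and, without Jurkat, to -0.484 for CD44, 0.0206 for HOXC10 and 0.207 for PRAME. Of those that had not passed, TAL1 turned to -1.75 without CUTL1 and -0.28 with probe sets averaged, NOTCH3 to 0.29 with probe sets averaged, and smaller turns that did not pass were seen for TAL1, CD74, THY1 and MYC. Dim levels limit the sizes of the widest differences.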

Other observations

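Genes that placed DND41 with 1 other line and apart from the remaining pair were counted. Counting genes at least 3 log2 units above both of the remaining lines and within 1 unit of the line named, DND41 stood with CEM in 14 genes, with CUTL1 in 8 and with Jurkat in 8. Counting genes that far below, it stood with CEM in 9, with CUTL1 in 10 and with Jurkat in 13. These counts come with no test. RUNX2, a RUNT-domain factor, stood at 8.45 and 8.38 in DND41, against 3.19 and 3.31 in CEM, 3.12 and 3.02 in CUTL1 and 8.82 and 9.18 in Jurkat. RUNX2 was thus near Jurkat and apart from CEM and CUTL1. In other genes the split was different. PECAM1, an adhesion molecule of endothelium and leukocytes, stood at 10.08 and 10.06 in DND41, against 9.90 and 9.81 in CEM, 5.36 and 5.87 in CUTL1 and 10.35 and 10.34 in Jurkat, so CUTL1 was the line apart. GZMA, a protease of cytotoxic cells, stood at 5.31 and 5.01 in DND41, against 7.92 and 8.04 in CEM, 4.78 and 5.31 in CUTL1 and 10.17 and 10.29 in Jurkat, so DND41 was near CUTL1, with CEM 2.82 above it.

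Lists with few bright genes gave little. Of 8 class II antigen presentation genes tested, HLA-DMA (-1.02) and HLA-DQB1 (-0.31) were lower in DND41 and 0 were higher, and the HLA-DQB1 call was lost without DND41 replicate 1 (-0.25) or 2 (-0.38). Of 5 cancer-testis genes tested 0 were outside the range. PRAME stood at 4.24 and 4.52 in DND41, against 3.99 and 4.60 in CEM, 4.12 and 3.97 in CUTL1 and 9.14 and 9.26 in Jurkat, so Jurkat was the line apart.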
